A study of Mus musculus with 9 samples.

Results

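The Janus kinases Jak1, Jak2, Jak3 and Tyk2, the transcription factors Stat3, Stat5a, Stat5b and Stat6, and the serine/threonine kinases Pim1 and Pim2 were followed in eosinophils from mouse muscle. They were chosen as central genes of cytokine receptor signalling, with earlier results of these data known. All 10 were found once by symbol among the 54146 genes of the deposited table. RNA had been sequenced from eosinophils of the quadriceps, sorted by flow cytometry as live CD45-positive, Siglec-F-positive cells without CD11c, Gr1 or MHC class II on their surface. The 9 libraries form 3 groups of 3. The mdx_IL5Tg mice are dystrophic mdx mice that also carry an interleukin-5 transgene, the mdx mice lack dystrophin and model Duchenne muscular dystrophy, and the IL5Tg mice carry the interleukin-5 transgene. All mice are labelled adult, and the replicates are called biological in the design text. Every sample, those of the IL5Tg group too, has mdx as its strain label, and the titles, which the groups here follow, say otherwise for IL5Tg. The promoter of the transgene is not given in the sources used here, and no group lacks both the transgene and the dystrophin mutation.

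Cytokine receptors of this class have no enzyme of their own. A Janus kinase bound to each receptor chain phosphorylates the chain and the STAT proteins that dock on it, and the STATs then pair, enter the nucleus and switch on target genes. The interleukin-5 receptor of eosinophils, made of Il5ra and the common beta chain Csf2rb, signals through JAK1, JAK2 and STAT5 and keeps the cells alive. Interleukin-4 and interleukin-13 signal through STAT6, and interleukin-6, interleukin-10 and granulocyte colony-stimulating factor through STAT3. Pim kinases need no activating phosphorylation and are active once made, so their RNA level is a main point of their control; Pim1 and Pim2 are themselves STAT5 target genes.

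Counts per library ranged from 26752780 to 58368283, and the members' counts ranged from 169 for Jak3 in IL5Tg S9 to 61947 for Pim1 in mdx_IL5Tg S1. Levels are given as CPM, each count divided by its library's TMM-scaled total, differences as log2 changes with their standard error (SE) from edgeR's quasi-likelihood test over 15886 genes, and a gene was called at a Benjamini-Hochberg adjusted p under 0.05. All 10 members passed the filter on low counts. By group, counts per library were 43297851 to 58368283 in mdx_IL5Tg, 29200231 to 41627444 in mdx and 26752780 to 30824793 in IL5Tg. The TMM factors were 0.867 to 0.918, 1.02 to 1.15 and 1.00 to 1.08 in the same order. Depth was highest and the factors lowest in mdx_IL5Tg, and neither can be told apart from that group. Il5 itself, which the transgene supplies, was at 664 to 724 CPM in mdx_IL5Tg, 0.265 to 0.402 CPM in mdx and 317 to 523 CPM in IL5Tg. The eosinophil markers Siglecf, Ccr3 and Il5ra averaged 520.4, 1372 and 58.1 CPM in mdx_IL5Tg, 157, 1017 and 61.1 CPM in mdx, and 353, 968 and 60.2 CPM in IL5Tg. The eosinophil granule genes Epx, Prg2, Ear1, Ear2 and Ear6 summed to 964 to 1278 CPM in mdx_IL5Tg, 111 to 818 CPM in mdx and 3216 to 12984 CPM in IL5Tg.

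Markers of other cells moved with the groups, and of all such markers only 1 of 10 lymphocyte markers was at 0 throughout a group (in mdx_IL5Tg and in IL5Tg). Of 12 macrophage markers, 6 were called higher in mdx_IL5Tg against IL5Tg, 1 higher and 9 lower in mdx_IL5Tg against mdx, and 10 higher in mdx against IL5Tg. The 12 summed to 2510 to 2778 CPM in mdx_IL5Tg, 1693 to 2194 CPM in mdx and 1607 to 1976 CPM in IL5Tg; without Adgre1, which eosinophils also transcribe, and Csf1r, the other 10 summed to 31.8 to 122 CPM in mdx_IL5Tg, 279 to 592 CPM in mdx and 22.2 to 28.2 CPM in IL5Tg. Muscle fibre markers summed to 17.3 to 21.1 CPM in mdx_IL5Tg, 58.8 to 141 CPM in mdx and 5.55 to 8.60 CPM in IL5Tg. Class II and dendritic markers summed to 221 to 382 CPM in mdx_IL5Tg, 294 to 383 CPM in mdx and 62.5 to 67.2 CPM in IL5Tg, a sum that joins genes of opposite direction. Itgax, which encodes CD11c, averaged 231 CPM in mdx_IL5Tg, 120.5 CPM in mdx and 47.0 CPM in IL5Tg, and was called higher in mdx_IL5Tg against mdx (log2 0.94). Cd74, the class II invariant chain, averaged 39.2 CPM in mdx_IL5Tg, 99.1 CPM in mdx and 6.38 CPM in IL5Tg, and was called lower in mdx_IL5Tg against mdx (log2 -1.34). H2-Aa, H2-Ab1 and H2-Eb1 were at -1.27, -1.39 and -1.50 in that comparison and not called. The cells had been gated as negative for CD11c and class II. Neutrophil markers reached 104 to 158 CPM in mdx_IL5Tg, 11.9 to 335 CPM in mdx and 418 to 1334 CPM in IL5Tg. Proliferation markers reached 160.0 to 189 CPM in mdx_IL5Tg, 145 to 200 CPM in mdx and 212 to 642 CPM in IL5Tg. Lymphocyte markers summed to 2.31 to 2.58 CPM in mdx_IL5Tg, 1.74 to 2.95 CPM in mdx and 4.32 to 9.95 CPM in IL5Tg. IL5Tg S7 and mdx S5 stand apart: S7 had the highest proliferation, neutrophil and granule gene sums of the 9 libraries, and S5 had 0.383% mitochondrial counts, against 1.28% to 2.29% in the other libraries. The part of these markers in the results below was not tested, and each call was repeated with libraries left out, S7 and S5 together among them. In a bulk sample, fewer cells of a type and less RNA per cell cannot be told apart.

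The genes that moved were mainly STATs and Pim kinases, by less than 2-fold. In mdx_IL5Tg against IL5Tg, 3 of the 10 members were called higher (Stat6, Pim1 and Pim2) and 0 lower, where 4.35% of all genes tested were called higher and 2.87% lower; at an unadjusted p under 0.05, 0 members were lower as well, and DESeq2 called 0 lower. In mdx_IL5Tg against mdx, 2 were called higher (Stat3 and Pim2) and 1 lower (Stat5a), beside 10.1% of all genes higher and 11.5% lower, so that the members' share called lower was near the background. In mdx against IL5Tg, 5 were called higher (Jak3, Stat5a, Stat5b, Stat6 and Pim1) and 0 lower, beside 11.8% and 8.96% of all genes; at an unadjusted p under 0.05, 0 were lower, and DESeq2 called 1 lower, Jak2. The median log2 change of the 10 members was 0.41, 0.03 and 0.41 in the 3 comparisons in this order, and the median of all genes was -0.05, -0.13 and 0.01. The 3 libraries of one group lay entirely above or below those of the other for 7 members in mdx_IL5Tg against IL5Tg (35.9% of all genes did), for 5 in mdx_IL5Tg against mdx (42.0%) and for 7 in mdx against IL5Tg (41.9%). Calls were repeated under 19 alternatives, of which 9 leave out 1 library each and the others change the tool, the scaling, the filter or the samples. Each group enters 2 of the comparisons, so the 3 sets of calls are not independent of each other. The members were chosen with earlier results of these data known, so their counts beside these shares are no test of the set.

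**Figure D1:**
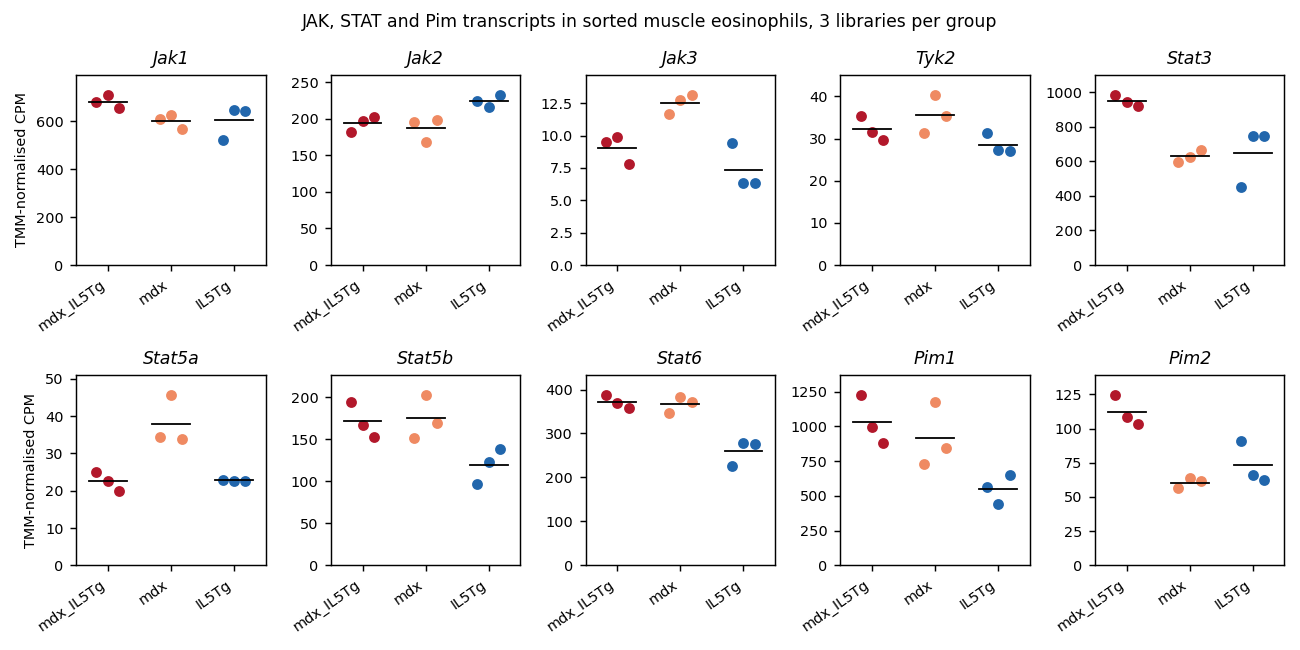
TMM-normalised CPM (vertical axes, linear from 0) of the 10 genes in each library, by group (horizontal axes); points are libraries and lines are means of 3 libraries. All 3 mdx_IL5Tg libraries lie above all mdx libraries for Stat3 and Pim2, and all 3 mdx libraries lie above all others for Jak3 and Stat5a.

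Per kilobase of each gene's longest coding transcript, Pim1 was the most abundant member in each group, at 382 ± 65.5 CPM per kb in mdx_IL5Tg, 339 ± 85.9 in mdx and 204 ± 39.2 in IL5Tg (SD, n = 3). Jak3, the kinase partner of the common gamma chain and best known in lymphocytes, was the least abundant in each, at 2.26 CPM per kb in mdx_IL5Tg, 3.11 in mdx and 1.83 in IL5Tg. In mdx_IL5Tg the order below Pim1 was Stat3 (157 CPM per kb), Jak1 (139), Stat6 (98.3), Pim2 (54.8), Jak2 (38.5), Stat5b (32.9), Tyk2 (6.67), Stat5a (5.79) and Jak3, and the libraries overlapped for the neighbours Jak2 and Stat5b and for Tyk2 and Stat5a. In mdx, Jak1 (123) stood above Stat3 (104), Stat6 (97.1), Jak2 (37.3), Stat5b (33.5), Pim2 (29.6), Stat5a (9.78) and Tyk2 (7.39), with overlap of Stat3 and Stat6, of Jak2 and Stat5b, and of Stat5b and Pim2. In IL5Tg the order was Jak1 (123), Stat3 (108), Stat6 (68.9), Jak2 (44.6), Pim2 (35.7), Stat5b (22.8), Tyk2 (5.90) and Stat5a (5.86), with overlap of Jak1 and Stat3, of Jak2 and Pim2, and of Tyk2 and Stat5a. Pim2 held the fifth place in mdx_IL5Tg, the seventh in mdx and the sixth in IL5Tg. Stat5b was the more abundant of the STAT5 genes in every library.

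Among the 4 Janus kinases, edgeR with TMM scaling called only Jak3, and in 1 comparison. Jak1, which serves most cytokine receptors including the gp130 and interferon families, lies at chr4:101152367-101265282 on the minus strand (GRCm38, GENCODE M21, as for all positions here). It had 683, 711 and 656 CPM in mdx_IL5Tg, 610.3, 628 and 570.1 CPM in mdx, and 522, 649 and 644 CPM in IL5Tg. All mdx_IL5Tg libraries were above all others, yet the log2 changes of 0.18 ± 0.13 against either group were not called (adjusted p = 0.406 against IL5Tg and 0.344 against mdx). Jak2, the kinase bound to the common beta chain, lies at chr19:29251828-29313080 on the plus strand. Its levels were 182, 196 and 203 CPM in mdx_IL5Tg, 196, 168 and 199 CPM in mdx, and 224, 216 and 232 CPM in IL5Tg. Both mdx_IL5Tg and mdx lay below IL5Tg in every library, by log2 values of -0.21 ± 0.12 (adjusted p = 0.274) and -0.26 ± 0.12 (adjusted p = 0.142), which were not called by edgeR.

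Jak3 lies at chr8:71676296-71690575 on the plus strand. It had 9.52, 9.92 and 7.78 CPM in mdx_IL5Tg, 11.7, 12.7 and 13.1 CPM in mdx, and 9.41, 6.36 and 6.30 CPM in IL5Tg. The mdx libraries were the 3 highest, and the other groups overlapped. Jak3 rose in mdx against IL5Tg by log2 0.77 ± 0.21 (edgeR adjusted p = 0.0262), and the changes of -0.46 ± 0.21 in mdx_IL5Tg against mdx (adjusted p = 0.131) and 0.30 ± 0.21 in mdx_IL5Tg against IL5Tg (adjusted p = 0.374) were not called. In mdx_IL5Tg against mdx, Jak3 was called lower with library totals as the only scaling (-0.78, adjusted p = 0.0282) and with voom quality weights (-0.42, adjusted p = 0.0356). The Jak3 call in mdx against IL5Tg was lost when mdx_IL5Tg S1, mdx S4, mdx S6, IL5Tg S8 or IL5Tg S9 was left out, at log2 0.62 to 0.79 and adjusted p 0.0548 to 0.122. The annotated exons of Jak3 share 404 bases with Insl3 on the same strand, which had 0 to 5 counts per library. Tyk2, the kinase of the interferon and interleukin-12 receptors at chr9:21104068-21131243 on the minus strand, had 35.3, 31.5 and 29.7 CPM in mdx_IL5Tg, 31.3, 40.3 and 35.4 CPM in mdx, and 31.3, 27.2 and 27.0 CPM in IL5Tg. The mdx libraries were above the IL5Tg libraries, but the log2 change of 0.32 ± 0.14 was not called (adjusted p = 0.128), and the other log2 changes of Tyk2 were 0.18 in mdx_IL5Tg against IL5Tg and -0.15 in mdx_IL5Tg against mdx. The last of these was -0.46 and called with library totals only (adjusted p = 0.0324).

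Stat6, the factor of interleukin-4 and interleukin-13 signalling at chr10:127642986-127660957 on the plus strand, was higher in mdx_IL5Tg and in mdx than in IL5Tg. Its levels were 387, 369 and 358 CPM in mdx_IL5Tg, 346, 383 and 371 CPM in mdx, and 225, 278 and 277 CPM in IL5Tg. All libraries of the first pair of groups lay above all 3 IL5Tg libraries, and mdx_IL5Tg and mdx overlapped. Stat6 rose in mdx_IL5Tg against IL5Tg by log2 0.51 ± 0.13 (edgeR adjusted p = 0.0381). It also rose in mdx against IL5Tg, by 0.50 ± 0.13 (adjusted p = 0.0198), and was at 0.02 ± 0.13 in mdx_IL5Tg against mdx. The first call was lost without mdx_IL5Tg S1 or S2, mdx S6, or any of IL5Tg S7, S8 and S9, and with library totals as the only scaling, at log2 0.30 to 0.62 and adjusted p 0.0517 to 0.162. The second was lost without mdx_IL5Tg S1 or S2, mdx S4 or S6, or IL5Tg S7, S8 or S9, and with the third group left out, at 0.35 to 0.51 and adjusted p 0.0509 to 0.0805. The annotated exons of Stat6 share 40 bases with Nab2, which had 484 to 2151 counts per library.

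Stat3, which transmits interleukin-6 family and interleukin-10 signals, was highest in mdx_IL5Tg. The gene lies at chr11:100885098-100939540 on the minus strand. It had 985, 941 and 919 CPM in mdx_IL5Tg, 599, 624 and 667 CPM in mdx, and 454, 746 and 749 CPM in IL5Tg. The lowest mdx_IL5Tg library was above the highest library of either other group, and mdx and IL5Tg overlapped. Stat3 rose in mdx_IL5Tg against mdx by log2 0.59 ± 0.18 (edgeR adjusted p = 0.0413). The change of 0.55 ± 0.18 against IL5Tg, where IL5Tg S7 was far below its group, was not called (adjusted p = 0.0878) and that of mdx against IL5Tg was -0.04 ± 0.18. The call against mdx was lost without mdx_IL5Tg S1 or S2, without mdx S4, S5 or S6, and with library totals only, at 0.27 to 0.72 and adjusted p 0.0512 to 0.232.

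The STAT5 genes are neighbours on chromosome 11. Both rose in mdx against IL5Tg, and Stat5a alone of the pair was called in mdx_IL5Tg against mdx, where it fell. Stat5a lies at chr11:100859351-100885169 on the plus strand and Stat5b at chr11:100780731-100850724 on the minus strand; their proteins carry interleukin-5, interleukin-3 and granulocyte-macrophage colony-stimulating factor signals in eosinophils. Their coding sequences, of 2382 and 2361 bases, were 90.7% identical over 2346 aligned bases, and the longest identical run was 324 bases. The 120 aligned coding bases in which they differ most, bases 45 to 164 counted from the start codon, are shown because reads from such stretches are what separates the genes; capitals mark the 33 differing bases, and the sequences are those of GENCODE M21.
Stat5a: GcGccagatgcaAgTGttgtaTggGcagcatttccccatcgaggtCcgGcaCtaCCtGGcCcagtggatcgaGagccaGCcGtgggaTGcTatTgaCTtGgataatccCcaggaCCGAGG
Stat5b: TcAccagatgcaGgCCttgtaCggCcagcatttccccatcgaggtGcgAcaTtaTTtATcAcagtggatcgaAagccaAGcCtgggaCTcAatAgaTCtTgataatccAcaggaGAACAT
Of all 75-base windows of the transcripts, 10.1% of those of Stat5a also occur in Stat5b and 7.53% of those of Stat5b in Stat5a, and RSEM divides reads from these by estimation; the 9 values of each gene were all fractional. The read length is not given in the sources used here.

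Stat5a had 24.96, 22.6 and 19.97 CPM in mdx_IL5Tg, 34.5, 45.6 and 34.0 CPM in mdx, and 23.0, 22.7 and 22.7 CPM in IL5Tg. The mdx libraries were above all 6 libraries with the transgene, which overlapped. Stat5a fell in mdx_IL5Tg against mdx (log2 -0.75 ± 0.16, edgeR adjusted p = 0.00768) and rose in mdx against IL5Tg by 0.74 ± 0.16 (adjusted p = 0.00832), while mdx_IL5Tg against IL5Tg was at -0.02 ± 0.16 (adjusted p = 0.958). The fall was lost only without mdx_IL5Tg S3 (-0.58, adjusted p = 0.0596) and the rise only without IL5Tg S9 (0.69, adjusted p = 0.0534), of 19 alternatives each. The annotated exons of Stat5a and Stat3 overlap by 72 bases on opposite strands, and the strand setting of the counting is not given in the sources used here.

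Stat5b had 195, 167 and 153 CPM in mdx_IL5Tg, 152, 202 and 170 CPM in mdx, and 96.5, 123 and 138 CPM in IL5Tg. Every mdx_IL5Tg and mdx library was above every IL5Tg library. Stat5b rose in mdx against IL5Tg by log2 0.55 ± 0.17 (edgeR adjusted p = 0.0392), and the change of 0.53 ± 0.17 in mdx_IL5Tg against IL5Tg was not called (adjusted p = 0.0766); mdx_IL5Tg against mdx was at -0.02 ± 0.17. The call was lost under 12 of 19 alternatives, which include leaving out any 1 of the 9 libraries, at 0.31 to 0.63 and adjusted p 0.0535 to 0.164. With the counts of both genes summed as 1 feature, mdx against IL5Tg stayed called (0.58 ± 0.16, adjusted p = 0.0267), mdx_IL5Tg against IL5Tg was at 0.45 ± 0.16 (adjusted p = 0.101) and mdx_IL5Tg against mdx at -0.13 ± 0.16 (adjusted p = 0.590).

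Stat5a made up 11.4%, 11.9% and 11.5% of the counts of the pair in mdx_IL5Tg, 18.5%, 18.4% and 16.7% in mdx, and 19.2%, 15.6% and 14.1% in IL5Tg. The 3 mdx_IL5Tg libraries were the lowest of the 9, and mdx and IL5Tg overlapped. The mean share was 11.6% ± 0.28 in mdx_IL5Tg, 17.9% ± 1.02 in mdx and 16.3% ± 2.64 in IL5Tg (SD, n = 3). By a two-sided exact permutation test, which cannot give a p under 0.1 with 3 libraries a group, the difference in share was -4.72 percentage points in mdx_IL5Tg against IL5Tg (p = 0.1), -6.24 in mdx_IL5Tg against mdx (p = 0.1) and 1.53 in mdx against IL5Tg (p = 0.4). Without IL5Tg S7 the last value was 2.98 and the first -3.26, and without IL5Tg S9 the last was 0.41.

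**Figure D2:**
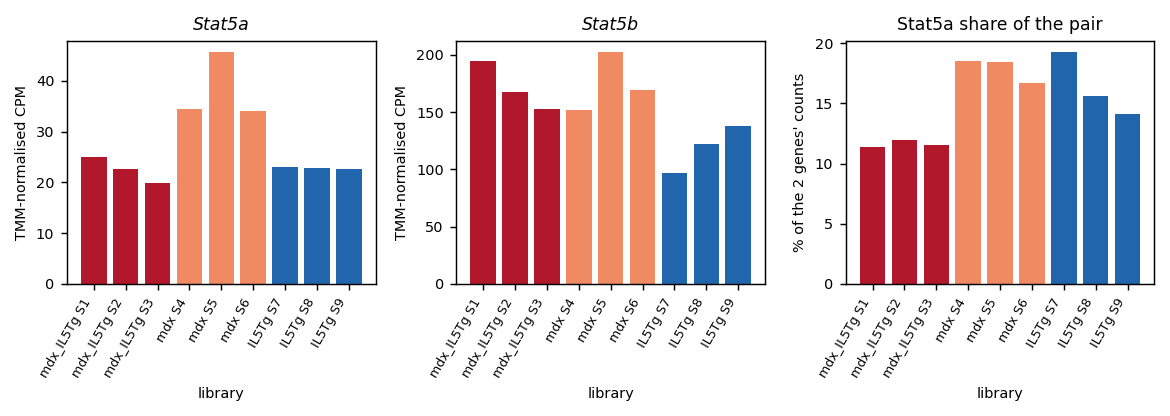
CPM of Stat5a (left) and Stat5b (middle) and Stat5a as a percentage of the counts of both genes (right) in each of the 9 libraries, as bars from 0. The Stat5a bars are highest in mdx, the Stat5b bars are lowest in IL5Tg, and the share is lowest in mdx_IL5Tg, at 11.4% to 11.9%.

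Pim1, a kinase of cell survival and growth at chr17:29490753-29496112 on the plus strand, was lowest in IL5Tg. Its levels were 1223, 992 and 876 CPM in mdx_IL5Tg, 731, 1176 and 841 CPM in mdx, and 565, 439 and 649 CPM in IL5Tg. The IL5Tg libraries were below all others, and mdx_IL5Tg and mdx overlapped. Pim1 rose in mdx_IL5Tg against IL5Tg by log2 0.90 ± 0.21, or 1.87-fold (edgeR adjusted p = 0.0354). It rose in mdx against IL5Tg, too, by 0.73 ± 0.21, or 1.66-fold (adjusted p = 0.0334), and was at 0.17 ± 0.21 in mdx_IL5Tg against mdx (adjusted p = 0.599). The first call was lost without mdx_IL5Tg S1 or S2 or IL5Tg S7, S8 or S9, and with library totals only, at 0.68 to 1.09 and adjusted p 0.0550 to 0.161. The second was lost without mdx_IL5Tg S1 or S2, mdx S5 or S6, or IL5Tg S7, S8 or S9, and without mdx S5 and IL5Tg S7 together, at 0.52 to 0.83 and adjusted p 0.0568 to 0.158.

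Pim2, a related survival kinase at chrX:7878262-7883432 on the plus strand, was highest in mdx_IL5Tg. It had 124, 108 and 103 CPM in mdx_IL5Tg, 56.2, 63.7 and 61.4 CPM in mdx, and 90.7, 66.2 and 62.2 CPM in IL5Tg. Every mdx_IL5Tg library was above every library of the other groups, which overlapped. Pim2 rose in mdx_IL5Tg against mdx by log2 0.89 ± 0.16, or 1.85-fold (edgeR adjusted p = 0.00374), and in mdx_IL5Tg against IL5Tg by 0.62 ± 0.16, or 1.53-fold (adjusted p = 0.0415), while mdx against IL5Tg was at -0.27 ± 0.16 (adjusted p = 0.231). The rise against mdx was called in all 19 alternatives, at 0.57 to 1.05 with adjusted p up to 0.0288. The rise against IL5Tg was lost without mdx_IL5Tg S1 or S2, mdx S6, or IL5Tg S8 or S9, and with library totals only, at 0.39 to 0.69 and adjusted p 0.0508 to 0.170.

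**Figure D3:**
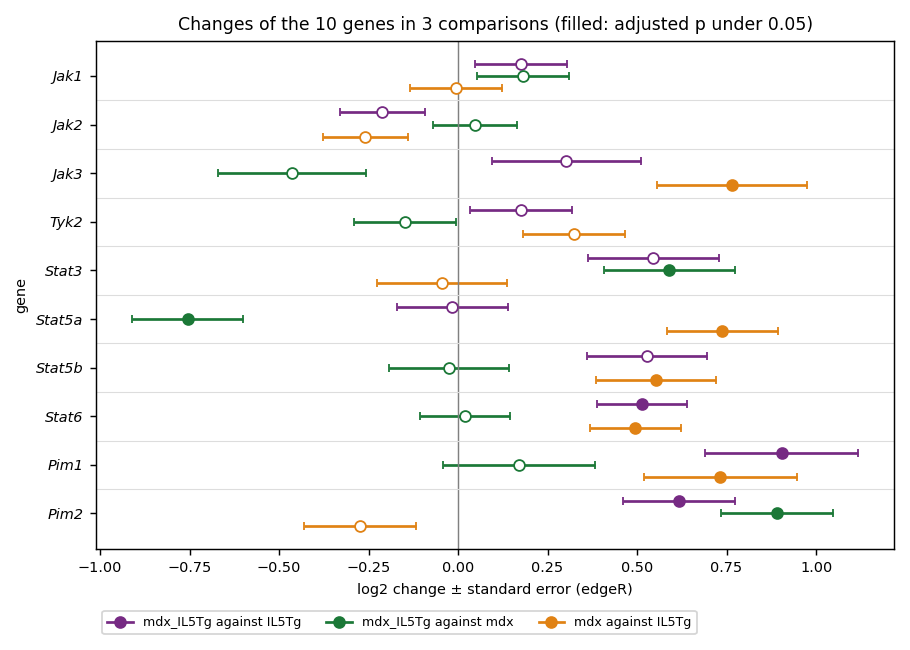
Log2 change ± SE from edgeR (horizontal axis, linear) of the 10 genes (vertical axis) in mdx_IL5Tg against IL5Tg, mdx_IL5Tg against mdx and mdx against IL5Tg; filled points have an adjusted p under 0.05. Stat5a is at -0.75 in mdx_IL5Tg against mdx and 0.74 in mdx against IL5Tg, and Pim2 is filled in both comparisons of mdx_IL5Tg.

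Stat2, Stat4 and Pim3 are other members of the same families. Stat4, the factor of interleukin-12 signalling, averaged 9.23 ± 0.24 CPM in mdx_IL5Tg, 27.8 ± 6.57 in mdx and 10.1 ± 1.28 in IL5Tg (SD, n = 3), with the mdx libraries above all others. It fell in mdx_IL5Tg against mdx (log2 -1.59 ± 0.20, edgeR adjusted p = 4.75e-04) and rose in mdx against IL5Tg by 1.45 ± 0.19 (adjusted p = 7.12e-04), in all 19 alternatives. By edgeR, Stat2 and Pim3 were called in no comparison. In the order used above, the log2 changes were -0.25, -0.48 and 0.24 for Stat2 and 0.35, 0.04 and 0.31 for Pim3. Stat2 in mdx_IL5Tg against mdx was close to the threshold (edgeR adjusted p = 0.0521), with all mdx_IL5Tg libraries below all mdx libraries. Jak3, Stat5a and Stat4 were highest in mdx. The sum of all 12 macrophage markers was highest in mdx_IL5Tg, but without Adgre1 and Csf1r it was highest in mdx. Muscle fibre markers also had their highest sum in mdx, at 58.8 to 141 CPM. C1qa, C1qb and C1qc are the complement genes of tissue macrophages. They summed to 20.3, 29.7 and 4.83 CPM in mdx_IL5Tg, 117, 87.5 and 57.2 CPM in mdx, and 2.46, 1.20 and 3.88 CPM in IL5Tg. The part of other cells in the levels of Jak3, Stat5a and Stat4 was not tested.

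Of 20 receptor chain genes tested, 6 were higher in mdx_IL5Tg against IL5Tg, 4 were higher (Il10ra, Ifngr1, Il4ra and Ifnar2) and 3 lower (Il6ra, Il7r and Csf3r) in mdx_IL5Tg against mdx, and 7 were higher and 1 lower (Il4ra) in mdx against IL5Tg. Their median log2 changes were 0.44, 0.05 and 0.36, beside -0.05, -0.13 and 0.01 for all genes. With 1 library left out, the higher calls numbered 2 to 9, 3 to 6 and 2 to 8. Of all genes, 4.35%, 10.1% and 11.8% were called higher and 2.87%, 11.5% and 8.96% lower in the 3 comparisons. These shares are the background of each list below as well, and no list was tested against them. Ifnar2, an interferon receptor chain at log2 0.38, lost its call in mdx_IL5Tg against mdx without mdx_IL5Tg S1 or mdx S4 or S6, with no filter and with library totals only (adjusted p 0.0509 to 0.668). The Ifnar2 call in mdx_IL5Tg against IL5Tg (0.50 ± 0.11, edgeR adjusted p = 0.0286) was lost in 5 of 19 alternatives (adjusted p up to 0.115). The receptor for interleukin-5 was not among the calls. Il5ra, its ligand-binding chain, averaged 58.1 ± 9.65 CPM in mdx_IL5Tg, 61.1 ± 10.7 CPM in mdx and 60.2 ± 5.43 CPM in IL5Tg (SD, n = 3), with log2 changes of -0.05, -0.07 and 0.02. Csf2rb averaged 3359 ± 209.5 CPM in mdx_IL5Tg, 2306 ± 129 CPM in mdx and 2930.5 ± 992 CPM in IL5Tg, with log2 changes of 0.20, 0.54 and -0.35 (adjusted p = 0.583, 0.0901 and 0.263). Csf2rb2, a mouse paralog of the beta chain whose reads may be shared with Csf2rb, was at -0.01, 0.43 and -0.43, also not called. Il4ra, the chain that recruits STAT6, averaged 484 ± 23.0 CPM in mdx_IL5Tg, 217 ± 28.9 CPM in mdx and 308 ± 33.7 CPM in IL5Tg. It rose in mdx_IL5Tg against mdx by 1.16 ± 0.14 (adjusted p = 4.45e-04, in all 19 alternatives) and against IL5Tg by 0.65 ± 0.14 (adjusted p = 0.0283), and fell in mdx against IL5Tg (-0.51 ± 0.14, adjusted p = 0.0265). The last pair of Il4ra calls was lost in 4 and 5 of 19 alternatives: without mdx_IL5Tg S1 or S2 or IL5Tg S7 or S8 for the rise (adjusted p up to 0.129), and without mdx S4 or S6 or IL5Tg S8 or S9, or without the third group, for the fall (adjusted p up to 0.0952).

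The STAT3-recruiting interleukin-10 receptor chain Il10ra averaged 224 ± 29.1 CPM in mdx_IL5Tg, 81.2 ± 7.44 in mdx and 107 ± 6.69 in IL5Tg. It rose in mdx_IL5Tg against IL5Tg by log2 1.07 ± 0.14 (adjusted p = 0.00342) and against mdx by 1.47 ± 0.14 (adjusted p = 7.04e-05). Ifngr1, the ligand-binding chain of the interferon-gamma receptor, rose likewise by 0.90 ± 0.14 (adjusted p = 0.00922) and 1.26 ± 0.14 (adjusted p = 2.89e-04); these 4 calls held in all 19 alternatives. Il7r and Il6ra, at 2.41 and 2.49 CPM in mdx_IL5Tg, 11.5 and 11.5 CPM in mdx, and 1.58 and 2.64 CPM in IL5Tg, had their highest means in mdx. Il7r changed by -2.25 ± 0.45 in mdx_IL5Tg against mdx and 2.86 ± 0.47 in mdx against IL5Tg, and Il6ra by -2.20 ± 0.34 and 2.12 ± 0.34, in all 19 alternatives of each. Csf3r, the third chain lower in mdx_IL5Tg than in mdx (-2.08 ± 0.67, adjusted p = 0.0465) and named after its values were seen, lost that call without any 1 of mdx_IL5Tg S1, S2 and S3, mdx S4 or mdx S6, and without the filter on low counts (adjusted p up to 0.152). In mdx_IL5Tg against mdx, these low-level chains moved in the direction of the 9 macrophage markers called lower, while Adgre1 was called higher (log2 0.90). In mdx against IL5Tg they moved in the direction of the 10 markers called higher. In mdx_IL5Tg against IL5Tg, where 6 of the 12 markers were called higher, Il7r, Il6ra and Csf3r were at 0.60, -0.08 and 0.24 and not called. The part of the macrophage markers was not tested.

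Among 18 inhibitors of the pathway tested, 2 were higher in mdx_IL5Tg against IL5Tg (Cish and Sh2b3), 3 higher (Socs2, Cish and Ptprc) and 3 lower (Socs5, Sh2b3 and Ptpn6) in mdx_IL5Tg against mdx, and 1 higher (Sh2b3) and 2 lower (Socs2 and Ptprc) in mdx against IL5Tg. The median log2 changes were 0.09, 0.12 and -0.02. With 1 library left out, the higher calls numbered 0 to 5 in the first comparison and 2 to 4 in the second, where the lower calls numbered 0 to 2. The 1 higher and 2 lower of 18 in mdx against IL5Tg were near the background, where 11.8% of all genes were higher and 8.96% lower. Ptpn6, a phosphatase that acts on Janus kinases (log2 -0.43, adjusted p = 0.0478), lost its call in 14 of 19 alternatives, among them DESeq2, RLE factors and the removal of any 1 of the 9 libraries (adjusted p up to 0.318). Socs5 (log2 -0.78, adjusted p = 0.0172) lost its call without mdx_IL5Tg S1 or S3 or mdx S4 or S6 (adjusted p up to 0.0918). Ptprc, the CD45 phosphatase on which the cells were sorted, rose in mdx_IL5Tg against mdx by 0.55 ± 0.18 (adjusted p = 0.0487) and fell in mdx against IL5Tg (-0.93 ± 0.18, adjusted p = 0.00536, in all 19 alternatives). The rise was lost in 8 alternatives, among them those without mdx_IL5Tg S3 or any 1 of mdx S4, S5 and S6 (adjusted p up to 0.349). Cish and Socs2 are classic STAT5 feedback inhibitors. Socs2 averaged 182 ± 21.8 CPM in mdx_IL5Tg, 26.6 ± 0.51 in mdx and 139 ± 7.59 in IL5Tg, with a rise in mdx_IL5Tg against mdx (log2 2.77 ± 0.13, adjusted p = 8.47e-07) and a fall in mdx against IL5Tg (log2 -2.39 ± 0.13, adjusted p = 2.67e-06), both called in all 19 alternatives. Cish averaged 340.2 ± 39.2 CPM in mdx_IL5Tg, 194 ± 19.3 in mdx and 220.0 ± 13.3 in IL5Tg. It rose in mdx_IL5Tg against mdx by 0.81 ± 0.14 (adjusted p = 0.00289, in all 19 alternatives) and against IL5Tg by 0.63 ± 0.13 (adjusted p = 0.0284). The Cish call against IL5Tg was lost without mdx_IL5Tg S1 or any 1 of IL5Tg S7, S8 and S9, and with library totals only (adjusted p up to 0.132). Socs1 and Socs3 were called in no comparison, at log2 -0.15, 0.30 and -0.45 for Socs1 and 0.26, -0.15 and 0.41 for Socs3. Sh2b3, an adaptor that restrains JAK2, was at 170 ± 18.8 CPM in mdx_IL5Tg, 248.9 ± 47.1 in mdx and 105 ± 16.3 in IL5Tg. It rose in mdx against IL5Tg by 1.24 ± 0.17 (adjusted p = 9.18e-04, in all 19 alternatives). Its other changes, 0.69 ± 0.17 in mdx_IL5Tg against IL5Tg and -0.55 ± 0.17 in mdx_IL5Tg against mdx, were called (adjusted p = 0.0402 and 0.0415) but lost in 5 and 10 of 19 alternatives. The first of these Sh2b3 calls was lost without mdx_IL5Tg S1 or S2, IL5Tg S7 or S9 and with library totals only, and the second without any 1 library other than mdx S5, with RLE factors or without the third group (adjusted p up to 0.150 and 0.245).

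Of 17 STAT5 target genes tested, Pim1 and Pim2 among them, 4 were higher in mdx_IL5Tg against IL5Tg (Pim1, Pim2, Cish and Bcl2l1). In mdx_IL5Tg against mdx, 9 were higher (Socs2, Bcl2l1, Osm, Ccnd3, Cish, Cdkn1a, Pim2, Bcl2 and Ccnd2) and 1 lower (Ccnd1), and in mdx against IL5Tg, 2 were higher (Pim1 and Ccnd1) and 5 lower (Socs2, Bcl2l1, Ccnd3, Osm and Bcl2). The median log2 changes were 0.38, 0.72 and -0.18. With 1 library left out, the higher calls numbered 0 to 9 in the first comparison and 9 in each case in the second, and the lower calls 5 to 6 in the third. Bcl2l1, which encodes the survival protein Bcl-xL, averaged 148 ± 9.69 CPM in mdx_IL5Tg, 22.6 ± 4.83 in mdx and 74.1 ± 5.34 in IL5Tg. It rose by log2 0.99 ± 0.16 in mdx_IL5Tg against IL5Tg (adjusted p = 0.00972, lost only without mdx_IL5Tg S1, adjusted p = 0.0508), rose by 2.71 ± 0.17 in mdx_IL5Tg against mdx (adjusted p = 4.26e-06) and fell in mdx against IL5Tg (-1.72 ± 0.16, adjusted p = 8.79e-05). Osm, an interleukin-6 family cytokine, and Ccnd3, a D-type cyclin, rose in mdx_IL5Tg against mdx by 1.47 ± 0.17 and 0.89 ± 0.12 (adjusted p = 3.77e-04 and 8.16e-04) and fell in mdx against IL5Tg (-1.31 ± 0.17 and -0.93 ± 0.12, adjusted p = 6.75e-04 and 5.73e-04). Socs2, Bcl2l1, Osm and Ccnd3 had their lowest means in mdx, the group with the highest Stat5a mean. Ccnd1 had its highest mean there, at 22.0 CPM against 8.76 in mdx_IL5Tg and 7.74 in IL5Tg, and Pim1 was higher in mdx than in IL5Tg. The mdx group also had the least Il5, at 0.265 to 0.402 CPM. Stat5b, the more abundant STAT5 gene, was at log2 -0.02 in mdx_IL5Tg against mdx. A link between STAT5 levels and these genes was not tested.

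**Figure D4:**
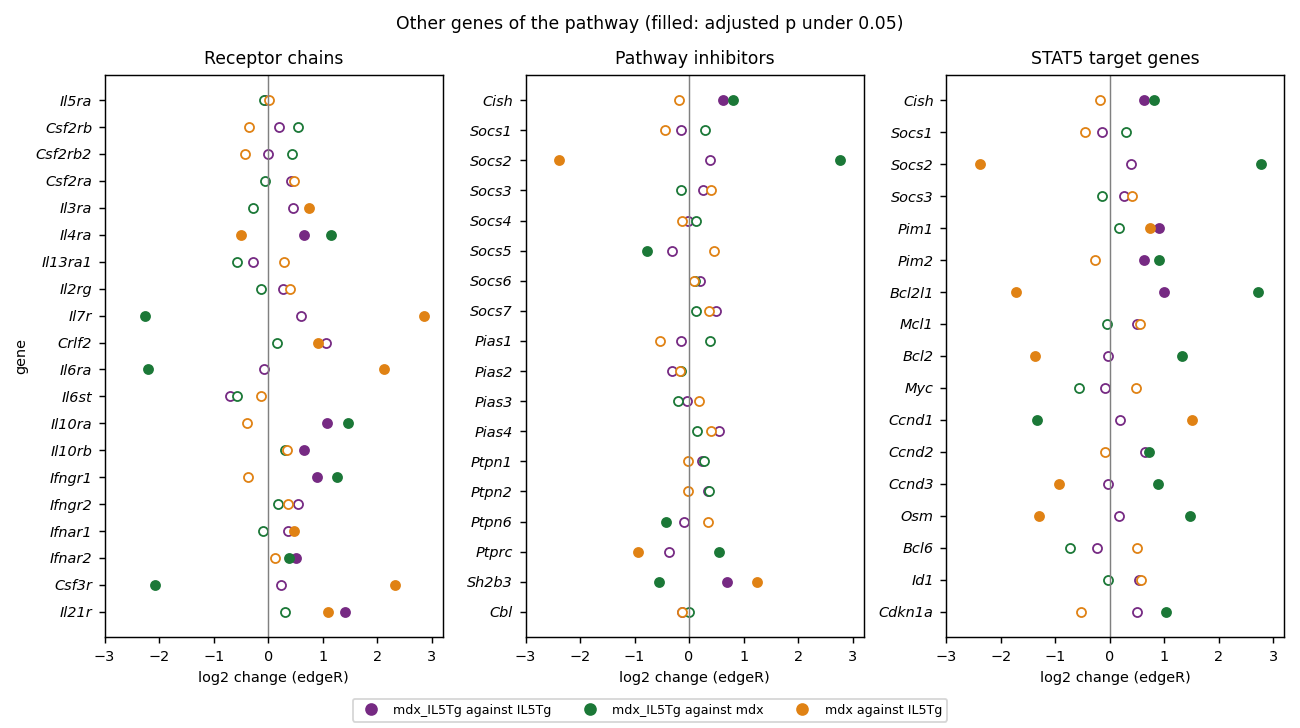
Log2 changes from edgeR (horizontal axes, linear) of receptor chains, pathway inhibitors and STAT5 target genes (vertical axes) in the same 3 comparisons; filled points have an adjusted p under 0.05. Socs2, at 2.77 in mdx_IL5Tg against mdx and -2.39 in mdx against IL5Tg, and Bcl2l1, at 2.71 and -1.72, lie far from 0 in opposite directions, while Il5ra lies near 0.

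The promoters of the members were searched for the letters that STAT dimers are known to bind, TTCNNNGAA and, for STAT6, the same with 4 bases in place of 3 between TTC and GAA. Both read the same on either strand, and the window was 250 bases before to 50 bases after each start in RefSeq on GRCm38.p6. All 10 members had an entry, 13 promoters in all, and 0 held either motif, where 8.3% and 6.95% of 32851 promoters did; this says only that the letters are not in these windows. Of 10 other pathway genes searched, chosen with their results known, 8 had an entry, and 4 held a match. The 4 are shown because they are feedback inhibitors, a target and a family member described here, with the motif in capitals and the flanking bases in lower case.
Cish, chr9:107296654-107296683, plus strand: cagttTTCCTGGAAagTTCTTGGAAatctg
Socs3, chr11:117969507-117969525, minus strand: cagccTTCTTAGAAgggag
Bcl2l1, chr2:152828479-152828498, minus strand: gctttTTCTTCAGAAtcctg
Stat2, chr10:128270283-128270302, plus strand: ttcctTTCCCTAGAActcac
Cish holds 2 copies of TTCNNNGAA, which begin at positions 1 and 12 with the start base as 1 and do not overlap, and Socs3 holds 1, which begins 154 bases before it. Bcl2l1 and Stat2 hold 1 longer motif each, which begin 4 and 210 bases before the start. Bcl2l1 also has windows at other starts, which held 0 matches. Cish and Bcl2l1 rose in both comparisons of mdx_IL5Tg, and edgeR called Socs3 and Stat2 in none. Il4ra and Pim2, whose windows held 0 matches, rose in both comparisons as well. Socs2 had no promoter entry. A match is a description of the sequence and not evidence of binding.

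Of 9 STAT6 target genes tested, 5 were higher in mdx_IL5Tg against IL5Tg (Tgm2, Arg1, Mrc1, Il4ra and Cish), 3 higher (Il4ra, Cish and Tgm2) and 2 lower (Mrc1 and Klf4) in mdx_IL5Tg against mdx, and 3 higher (Mrc1, Tgm2 and Arg1) and 1 lower (Il4ra) in mdx against IL5Tg. The median log2 changes were 0.65, -0.30 and 0.82, and with 1 library left out the higher calls of the first comparison numbered 1 to 5 and the lower calls of the second 0 to 2. Tgm2, a transglutaminase, averaged 11429 CPM in mdx_IL5Tg, 7174 CPM in mdx and 3129.8 CPM in IL5Tg. Tgm2 rose in the 3 comparisons by log2 1.87 ± 0.16, 0.67 ± 0.16 and 1.20 ± 0.16 (adjusted p = 5.38e-04, 0.0132 and 6.40e-04), and with library totals only its change in mdx_IL5Tg against mdx was 0.35 and not called. Arg1, an arginine-degrading enzyme, and Mrc1, the mannose receptor, both of which macrophages also make, were at 4.19 and 10.4 CPM in mdx_IL5Tg, 5.16 and 33.3 CPM in mdx, and 0.403 and 2.11 CPM in IL5Tg. Both rose in mdx against IL5Tg, by 3.71 ± 0.64 for Arg1 and 3.99 ± 0.46 for Mrc1, in all 19 alternatives. In mdx_IL5Tg against IL5Tg, the Arg1 call (3.40 ± 0.64, edgeR adjusted p = 0.0182) was lost without mdx_IL5Tg S1 or IL5Tg S7 (adjusted p up to 0.0655). The Mrc1 call there (2.31 ± 0.44, edgeR adjusted p = 0.0190) was lost without mdx_IL5Tg S1, IL5Tg S7 or IL5Tg S8. It was also lost without IL5Tg S7 and mdx S5 together (adjusted p up to 0.0768 in these fits). Mrc1 is also on the macrophage marker list, and the part of macrophages in its change was not tested. Several genes stand on more than 1 list. Il4ra is counted among the receptor chains, STAT6 targets and STAT3 targets, and Cish among the inhibitors, STAT5 targets and STAT6 targets. Cdkn1a is counted both as a STAT5 target and as a Pim substrate. The counts of the lists are therefore not independent of each other.

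Of 12 STAT3 target genes tested, 4 were higher in mdx_IL5Tg against IL5Tg (Il1rn, Vegfa, Il4ra and Bcl3), 5 higher (Vegfa, Il4ra, Fos, Hif1a and Il1rn) and 2 lower (Timp1 and Il10) in mdx_IL5Tg against mdx, and 4 higher (Bcl3, Timp1, Il10 and Il1rn) and 2 lower (Fos and Il4ra) in mdx against IL5Tg. The median log2 changes were 0.64, 0.22 and 0.44, and with 1 library left out the higher calls of the first comparison numbered 2 to 6 and the lower calls of the second 0 to 2. The falls of Timp1 and Il10 in mdx_IL5Tg against mdx were each lost without the third group, without mdx_IL5Tg S1 or S3, mdx S4 or S6, or IL5Tg S9, and also without IL5Tg S7 for Timp1 and IL5Tg S8 for Il10 (adjusted p up to 0.139 and 0.201). Vegfa, the vascular growth factor, averaged 997 CPM in mdx_IL5Tg, 309 CPM in mdx and 413 CPM in IL5Tg, and rose in mdx_IL5Tg by log2 1.27 ± 0.14 against IL5Tg (adjusted p = 0.00181) and 1.69 ± 0.14 against mdx (adjusted p = 3.25e-05). Il1rn, the interleukin-1 receptor antagonist, was at 1352 CPM in mdx_IL5Tg, 681 CPM in mdx and 373 CPM in IL5Tg, and rose in all 3 comparisons, by 1.86 ± 0.19, 0.99 ± 0.19 and 0.87 ± 0.19 (adjusted p = 0.00128, 0.00507 and 0.00914). Fos, a subunit of the AP-1 factor, rose in mdx_IL5Tg against mdx by 1.31 ± 0.18 (adjusted p = 0.00117) and fell in mdx against IL5Tg (-1.06 ± 0.18, adjusted p = 0.00293). Each of these Vegfa, Il1rn and Fos calls held in all 19 alternatives. Il10 had very low levels, at means of 0.266 CPM in mdx_IL5Tg, 1.28 CPM in mdx and 0.0979 CPM in IL5Tg.

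Of 11 genes for Pim kinase substrates tested, 1 was higher in mdx_IL5Tg against IL5Tg (Cdkn1b) and 3 in mdx_IL5Tg against mdx (Cdkn1b, Cdkn1a and Foxo3). In mdx against IL5Tg 0 were called by edgeR, where 2 were higher and 1 lower at an unadjusted p under 0.05 and DESeq2 called 1 higher and 1 lower. Cdkn1b, the cell cycle inhibitor p27, averaged 339 CPM in mdx_IL5Tg, 209 CPM in mdx and 242 CPM in IL5Tg and rose by log2 0.49 ± 0.12 against IL5Tg (adjusted p = 0.0357) and 0.69 ± 0.12 against mdx (adjusted p = 0.00294). Its call against IL5Tg was lost without mdx_IL5Tg S1 or S2 or IL5Tg S7, S8 or S9, with library totals only and without the filter on low counts (adjusted p up to 0.138). Cdkn1a, the inhibitor p21, and Foxo3, a transcription factor, rose in mdx_IL5Tg against mdx by 1.03 ± 0.18 and 0.70 ± 0.14 (adjusted p = 0.00337 and 0.00662) in all 19 alternatives. With 1 library left out, the count of 1 substrate gene higher in mdx_IL5Tg against IL5Tg became 0 to 3. These are RNA levels; phosphorylation of the substrates was not measured. Of 12 adaptors that link receptors to other kinases, 1 was higher in mdx_IL5Tg against IL5Tg (Grb2), 2 higher (Lyn and Grb2) and 1 lower (Sh2b2) in mdx_IL5Tg against mdx, and 1 higher (Sh2b2) and 1 lower (Lyn) in mdx against IL5Tg. The first of these counts was 0 to 6 with 1 library left out and 0 to 6 under the other settings. In mdx_IL5Tg against mdx and in mdx against IL5Tg, the adaptor counts were near the background. Of all genes, 10.1% were higher and 11.5% lower in the former, and 11.8% and 8.96% in the latter. Lyn, the kinase bound to the beta chain, rose in mdx_IL5Tg against mdx by 1.11 ± 0.16 (adjusted p = 0.00143) and fell in mdx against IL5Tg (-0.70 ± 0.16, adjusted p = 0.0131). Sh2b2, an adaptor of JAK2, fell and rose in the same comparisons, at -1.91 ± 0.28 and 1.69 ± 0.28 (adjusted p = 0.00133 and 0.00212). The Lyn and Sh2b2 calls held in all 19 alternatives, and those of Grb2, at 0.51 ± 0.12 and 0.39 ± 0.12 (adjusted p = 0.0383 and 0.0478), were lost in 6 and 8 of them, mdx_IL5Tg S1 left out among both.

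Across the 9 libraries, the genes most like each called member among 6795 protein-coding genes were found by Pearson's r of log2 CPM; the libraries share their 3 groups, so high values arise wherever group means have the same order. Stat6 was most like Arhgap25 (r = 0.989), Bag6 and Plekho2, and Stat5b most like Upf1 (r = 0.982), Ranbp3 and Prex1. Stat5a was most like Nop14 (r = 0.981), Oaf and Ddx27, and Jak3 most like Notch4 (r = 0.970), Rsad2 and Sema4c. Pim1 was most like Drap1 (r = 0.979), Adrbk1 and Themis2, Stat3 most like Pknox1 (r = 0.975), Osbp and Shc1, and Pim2 most like Ly6e (r = 0.975), Tma7 and Cnn2. Among the members, r was highest for Stat5b and Stat6 (0.951), Jak1 and Stat3 (0.903), Stat5b and Pim1 (0.878), and Jak3 and Tyk2 (0.857). Jak2 ran against Tyk2 at -0.871 and Stat5b at -0.850, over the same 9 libraries.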

How the data were processed

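The values used are the expected counts that the authors deposited for each gene, an RSEM estimate without normalisation. Per the submitters' processing notes, reads were handled with cutadapt 2.10, STAR 2.5.3, RSEM 1.3.0 and limma on mm10. Settings, gene annotation, strand and read length are not stated in those notes or the labels. RSEM splits reads that match more than 1 gene, which makes paralogs and overlapping genes uncertain. Fractional values, 6.03% of all, were rounded. The S number of a column is not in the labels, so columns were tied to groups and not to numbered replicates.

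Genes were kept by filterByExpr (minimum count 10), scaled by TMM and tested with edgeR 4.0.16 (quasi-likelihood, robust; R 4.3.3), all 9 libraries in 1 fit; p-values were adjusted by Benjamini-Hochberg over 15886 genes (threshold 0.05). The code of the fit was run on simulated counts, whose outcome is not given here and is no support for the calls. The 19 alternatives were 3 other tests (DESeq2 1.42.0, and voom of limma 3.58.1 without or with quality weights), 2 other scalings (RLE; totals only), 3 changes of filter (none; at least 50 counts in 3 libraries; mitochondrial, haemoglobin and small RNA genes taken out), a fit without the third group, 9 fits without 1 library, and 1 with IL5Tg S7 with mdx S5 left out. Stat5a and Stat5b were also summed. Running them on the other pathway genes was decided after seeing the data. Within groups, libraries correlated at 0.957 to 0.987 (Pearson's r across genes), and no pair agreed within sampling noise.

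The members and lists were chosen with earlier results of these data known. Named were all members, up to 4 genes per list and comparison with the smallest p, Stat2, Stat4, Pim3, Il5ra, Csf2rb, Csf2rb2, Cish and Socs1 to Socs3, and the 3 protein-coding genes of at least 10 CPM most like each called member. Genes of a count of 9 or fewer that this rule does not pick (Csf3r, Ccnd2 and the like) were named after their values were seen. Of the identifiers, 54079 were found in GENCODE M21 without version. A result on 1 further gene is not reported here.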

Additional observations from a re-analysis of the deposited data

How the results depend on the processing

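No paired analysis was possible because the table's columns carry S numbers that cannot be tied to the replicate numbers of the titles. The number of members called in mdx_IL5Tg against IL5Tg, 3, became 5 with voom quality weights and with no filter (Stat3 and Stat5b added), 0 with library totals only, and 0 to 4 with 1 library left out. In mdx_IL5Tg against mdx it stayed between 2 and 4. In mdx against IL5Tg, 5 became 3 with only the groups compared, 3 without IL5Tg S7 and mdx S5 together, and 0 to 4 with 1 library left out; the cause was not tested. Library totals moved the median of all genes by -0.22, -0.32 and 0.10 in the 3 comparisons; relative to that median Pim2 in mdx_IL5Tg against mdx was 1.02 before and 1.03 after, and Pim1 in mdx_IL5Tg against IL5Tg 0.95 and 0.95.

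Of the members' values under the alternatives, 466 kept their direction and side of the threshold, 61 lost a call, 9 gained one (Jak2, Jak3, Tyk2, Stat3 and Stat5b) and 40 changed sign; 0 of the 40 had been called. With library totals only, Jak1 and Tyk2 in mdx_IL5Tg against IL5Tg were at -0.0357 and -0.0450, Jak1, Jak2, Stat6 and Pim1 in mdx_IL5Tg against mdx at -0.14, -0.28, -0.30 and -0.13, and Jak1 and Stat3 in mdx against IL5Tg at 0.10 and 0.0691. Stat5b in mdx_IL5Tg against mdx was at 0.0199 with DESeq2 and 0.0198 with RLE factors, 0.11 with quality weights, 0.0607 with only the groups compared and 0.10 without S7 and S5 together. Stat5a in mdx_IL5Tg against IL5Tg was at 0.0351 with quality weights and 0.45 summed with Stat5b. Jak2 in mdx_IL5Tg against mdx was at -0.0384 with quality weights, -0.0016 with the stricter filter and -0.0227 without S7 and S5 together, and Stat6 at -0.0311 with the stricter filter. Jak1 in mdx against IL5Tg was at 4.26e-04 with voom and 0.0039 with no filter. With 1 library left out, Stat5b in mdx_IL5Tg against mdx ran from -0.0443 to 0.149, Jak2 from -0.0233 to 0.186 and Tyk2 from -0.161 to 0.00513 in the same comparison, Stat5a in mdx_IL5Tg against IL5Tg from -0.0488 to 0.119, and in mdx against IL5Tg Jak1 from -0.151 to 0.0076 and Stat3 from -0.30 to 0.0268.

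Over all genes, 691 were called higher and 456 lower in mdx_IL5Tg against IL5Tg, against 1207 and 1257 with DESeq2, 2090 and 2204 with quality weights, 311 and 981 with library totals only, 1123 and 693 with only the groups compared, and 108 to 1557 and 2 to 1084 with 1 library left out. In mdx_IL5Tg against mdx the counts were 1603 and 1830, against 2943 and 3986 with quality weights and 746 and 4007 with library totals only, and in mdx against IL5Tg 1874 and 1424, against 3036 and 2462 and 2408 and 998 with the same settings. With 1 library left out the counts were 1092 to 2155 and 429 to 2035 in mdx_IL5Tg against mdx, and 948 to 1900 and 1013 to 1937 in mdx against IL5Tg.

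At depths of 26752780 counts or more, Jak3 rests on 169 to 558 counts per library and the other members on 608 or more. With 3 libraries a group, changes of the size seen in Stat3 and Stat5b fell on either side of the threshold.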
